A study of Rattus norvegicus with 12 samples.

Results

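Electrical stimulation of the motor cortex was compared with no stimulation in rats without a 6-OHDA lesion. The libraries were chosen by title: 3 rats labelled as stimulated controls and 3 labelled as controls, 6 of the 12 libraries of the series. All are messenger RNA from the motor cortex of Rattus norvegicus, and each library is a separate rat. The remaining 6 libraries come from rats given 6-OHDA to model Parkinson's disease (PD), 3 of them unstimulated and 3 stimulated; 6-OHDA (6-hydroxydopamine) is a toxin taken up by catecholamine neurons. In the design text, a graphene electrode array was placed on the primary motor cortex and driven wirelessly at 130 Hz, in daily sessions of 1 hour, for 2 weeks. That text names 3 groups where the labels give 4, so whether stimulated controls followed this schedule is not stated. Strain, sex, age, hemisphere, the time between the last stimulation and tissue collection, and whether unstimulated controls carried an array are not stated in the labels or the design text. Stimulation and the presence of an array therefore cannot be told apart in this comparison, and no batch of animals or libraries is given either.

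Stimulation of cortex can act at several levels that messenger RNA can show. Neuronal firing induces immediate early genes such as Fos, Egr1 and Arc, whose transcripts rise and decay within a short time, and slower genes for secreted and synaptic proteins such as Bdnf and Vgf. An implant at the brain surface can in addition evoke reactive astrocytes, marked by Gfap, activated microglia and deposition of meningeal matrix. None of these genes could be looked up here, because the deposited table carries rat Ensembl gene identifiers only and 0 of its 16534 identifiers were paired with a symbol by the reference used. For the same reason the labelled tissue was not checked against marker genes, and no sequence is shown. The account below bounds the stimulation difference over the features tested (genes as counted under 1 identifier each) and describes the rats one by one. It gives 2 identifiers in each direction.

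Stimulated control libraries were sequenced more deeply than the control libraries. They held 56210592, 58101127 and 56556954 reads in the table for rats 1, 2 and 3, against 42884227, 55663669 and 52770943 in control rats 1, 2 and 3. The groups did not overlap in depth (two-sided exact permutation test over 3 and 3 rats, p = 0.1, its smallest possible value). Levels are given in CPM (reads of a feature scaled to the same total in each library), which removes depth itself but not its effect on precision. Of the 16534 features, 14985 averaged at least 0.5 CPM over the 12 libraries and were tested. Each feature of the table had reads in all 12 libraries. A transcript without reads in any 1 of them is therefore not in the table and is not bounded here.

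The stimulated control rats did not lie together. Along the first principal component of the 6 unlesioned libraries, which carried 50.9% of their variance, stimulated rats 1 and 3 scored 16.3 and 36.0, and stimulated rat 2 scored -16.7. Control rats 1, 2 and 3 scored -0.860, -7.06 and -27.7, so stimulated rat 2 fell among the controls and the other stimulated rats fell on the far side of control rat 1. The median CPM over the features of the table was 18.9, 17.7 and 19.9 in stimulated rats 1, 2 and 3. It was 18.8, 17.8 and 17.3 in control rats 1, 2 and 3. The 6 libraries thus ranked alike on this component and in median CPM. Whether scaling has a part in this component was not tested. On the second component (20.3%) stimulated rat 1 stood apart at 25.6, whereas stimulated rat 3, at -12.9, lay beside control rat 1, at -13.4.

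Differences between single rats gave the same picture. The median absolute difference between 2 libraries, on the log2(CPM + 0.5) scale, was 0.138 to 0.154 for the 3 pairs of control rats and 0.149 to 0.230 for the 3 pairs of stimulated control rats. Across groups, the 9 pairs ran from 0.105 to 0.269, which spans both within-group ranges. The most alike of all 15 pairs was a pair across groups, stimulated rat 2 with control rat 3 (0.105, Pearson's r across features 0.994), and the least alike was stimulated rat 3 with that same control (0.269, r = 0.974). Features are not independent replicates, so these coefficients only describe the libraries.

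**Figure D1:**
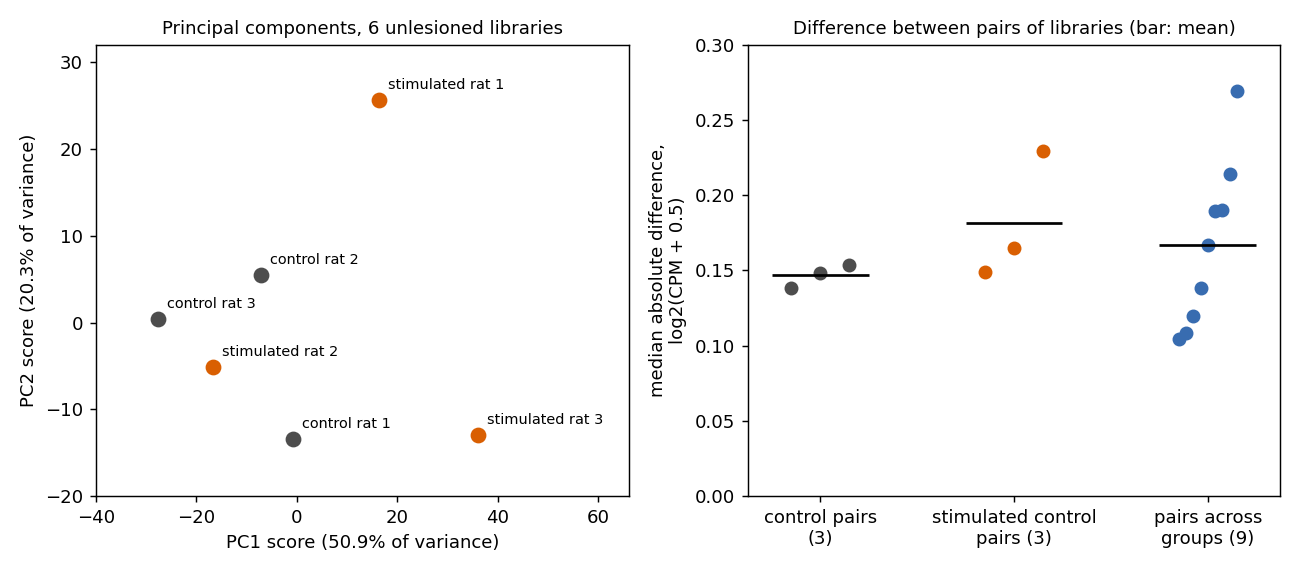
Left, scores of the 6 unlesioned libraries on the first and second principal components of log2(CPM + 0.5); right, the median absolute log2 difference for each pair of libraries, with a bar at the mean of each kind of pair. Stimulated rat 2 sits among the control rats, and the 9 pairs across groups (0.105 to 0.269) span the range of the pairs within groups.

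The comparison of stimulated with unstimulated controls asked what stimulation, or the array, does to intact motor cortex. By limma, 0 of 14985 features passed at an adjusted p under 0.05 (0% called), and the smallest adjusted p was 1.00. An unadjusted p under 0.05 was found for 268 features (1.79%), of which 176 were higher and 92 lower in stimulated rats. That share is below the 0.05 that a calibrated test gives when no feature differs. edgeR, run on whole reads recovered from the CPM, called 0 features with 306 at an unadjusted p under 0.05. DESeq2 also called 0, its smallest adjusted p being 0.0555, with 390 at an unadjusted p under 0.05.

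The estimates themselves were small for most features. The median absolute log2 difference was 0.108, and 37 features (0.247%) had an estimate beyond 2-fold, 29 of them higher and 8 lower. Of these 37, the stimulated and control libraries did not overlap for 16, against 8.88% of all features tested. Choosing features by a large difference itself favours such separation. A mean under 5 CPM was found for 20 of the 37 and for 3255 of all 14985 features tested. On the counts edgeR put 153 features beyond 2-fold. That fit differs in its scaling, in having no added 0.5 CPM and in comparing mean counts, not mean logs. With TMM factors, the scaling that edgeR used, limma put 34 features beyond 2-fold. The parts of the added 0.5 CPM and of mean counts in the higher number were not tested. As deposited, 59.0% of features had a higher estimate in stimulated rats and the median log2 difference was 0.03. The majority depended on scaling: higher estimates made up 45.8% after quantile normalization, 50.7% with TMM factors and 50.1% with factors from median ratios. Among features with an unadjusted p under 0.05, the higher share was 65.7% as deposited and 44.6% after quantile normalization.

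**Figure D2:**
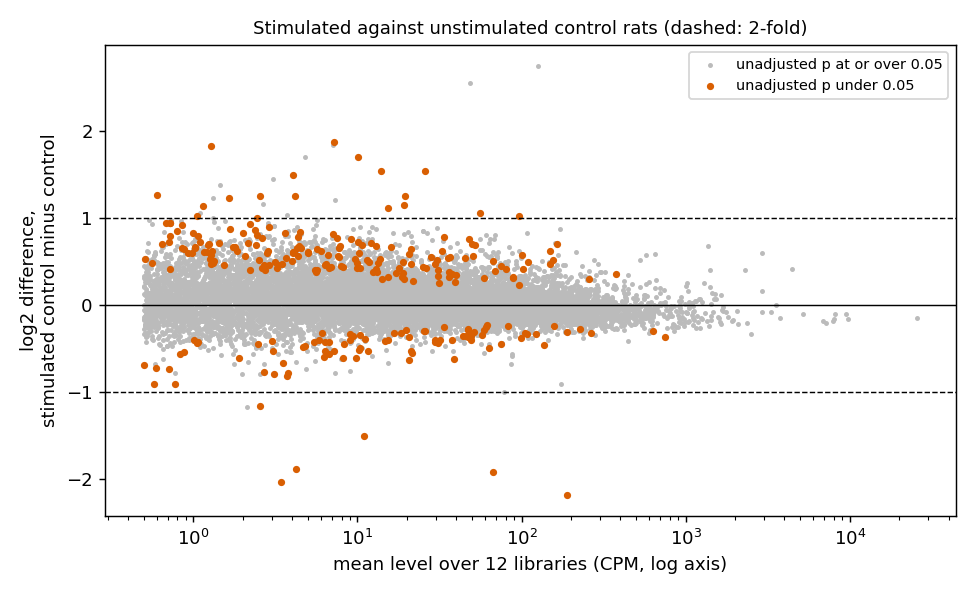
Log2 difference of stimulated control minus control for each of the 14985 tested features against its mean level in CPM on a log axis; dashed lines mark a 2-fold difference and colour marks an unadjusted p under 0.05 by limma. Most features lie near 0, 37 lie beyond 2-fold, and several of the largest differences have p-values over 0.05.

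The ends of the range show how 1 rat could set an estimate. The feature with the highest difference, 2.75 on the log2 scale, was at 1253 CPM in stimulated rat 1 but at 7.59 and 11.1 CPM in stimulated rats 2 and 3. In control rats it was at 16.5, 3.86 and 4.74 CPM, so the groups overlapped. Its 95% confidence interval ran from -0.68 to 6.18. The feature with the lowest difference, -2.19, was at 102, 82.0 and 48.6 CPM in stimulated rats 1, 2 and 3. It was at 599, 128 and 511 CPM in the controls, with control rat 2 close to the stimulated rats and no overlap between groups. The interval ran from -3.43 to -0.94 (limma unadjusted p = 0.00241, adjusted p = 1.00). Both were singled out after their values were seen.

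What these libraries leave possible was read from the 95% confidence interval of each feature. The interval reached 0.40 on the log2 scale to either side of the estimate in the median feature, a factor of 1.32. It lay wholly within a 2-fold change in either direction for 13484 features (90.0%), and within a 1.5-fold change for 9055 (60.4%). A rise beyond 2-fold remained inside the interval for 1292 features (8.62%) and a fall beyond 2-fold for 323 (2.16%). For 0 features did the interval lie wholly beyond 2-fold, and for 5 it lay wholly beyond 1.5-fold. These intervals hold per feature. Widened to hold jointly over all tested features (Bonferroni), they lay within 2-fold for 1545 features (10.3%) and within 4-fold for 10296 (68.7%).

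The bounds were tighter for abundant features. At a mean of 50 CPM and above, 4346 of 4459 features (97.5%) had an interval within 2-fold, and 3621 (81.2%) within 1.5-fold. Between 5 and 50 CPM the interval lay within 2-fold for 6691 of 7271 features (92.0%). Below 5 CPM it did so for 2447 of 3255 (75.2%), and a rise beyond 2-fold was not excluded by the interval for 675 of these (20.7%). A transcript that is scarce in cortex is thus bounded less closely than an abundant one. For scarce features the added 0.5 CPM also makes a fold difference smaller, so a bound of 2-fold on this scale can be wider in CPM.

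The spread that sets these intervals was taken from all 4 groups, and the groups differed in spread. The median within-group SD on the log2 scale was 0.13 in control, 0.16 in stimulated control, 0.29 in PD and 0.14 in stimulated PD rats (n = 3 each). The SD was larger in stimulated than in unstimulated controls for 60.9% of features. With only the 6 unlesioned libraries fitted, the median half-width fell from 0.40 to 0.30, a factor of 1.23. That fit placed 13746 features (91.7%) within 2-fold and 10598 (70.7%) within 1.5-fold. It gave 540 features (3.60%, again a share below 0.05) an unadjusted p under 0.05, 335 higher and 205 lower. By limma it called 0, with a smallest adjusted p of 0.784. On these 6 libraries edgeR called 0 features and DESeq2 called 5, 2 higher and 3 lower, with a smallest DESeq2 adjusted p of 1.81e-05. On simulated counts DESeq2 made more false calls at this threshold than limma or edgeR. Those counts had 12 libraries and the same spread in every group, unlike the fit of 6 and unlike these rats. How many of the DESeq2 calls given here are false was not tested.

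**Figure D3:**
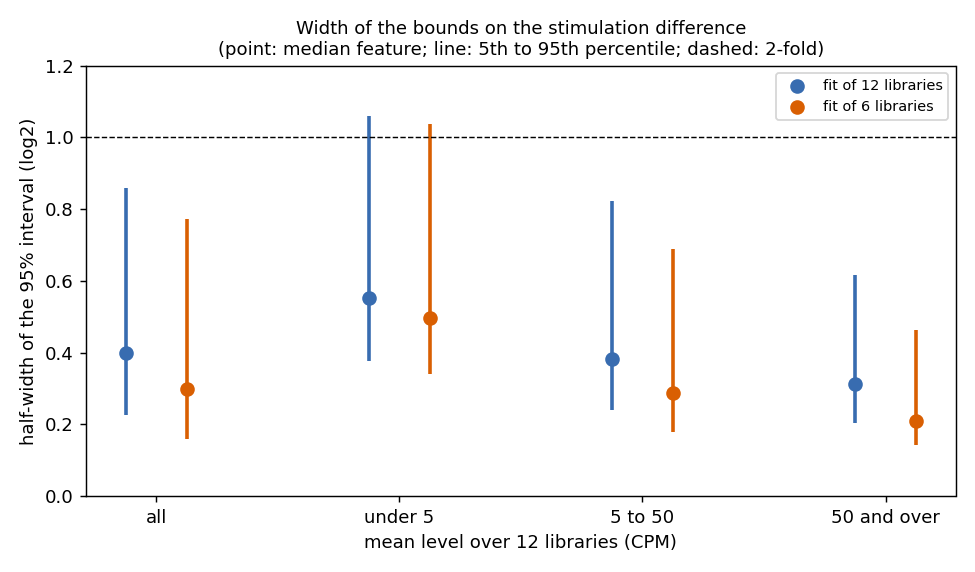
Half-width of the 95% confidence interval of the stimulation difference, in log2 units, for all features and by mean level in CPM; points are the median feature, lines run from the 5th to the 95th percentile, and the dashed line marks 2-fold. The median half-width is 0.55 below 5 CPM and 0.31 at 50 CPM and above in the fit of 12 libraries, and 0.50 and 0.21 in the fit of 6.

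The features nearest to the threshold are the 2 with the smallest p in each direction. They were chosen after their values were seen, and none passed the test by limma. ENSRNOG00000007443 was at 11.02, 10.33 and 8.714 CPM in control rats 1, 2 and 3 and at 16.3, 14.9 and 18.4 CPM in stimulated control rats 1, 2 and 3. All 3 stimulated rats lay above all 3 controls. The log2 difference was 0.70 (SE 0.16, 95% interval 0.34 to 1.05, limma unadjusted p = 0.00103, adjusted p = 1.00), a 1.62-fold higher level. It was among the 5 features called by DESeq2 when only the 6 unlesioned libraries were fitted (DESeq2 adjusted p = 0.00282), whereas on the same libraries the adjusted p was 0.784 by limma and 0.774 by edgeR.

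ENSRNOG00000055221 was at 0.723, 0.934 and 1.00 CPM in control rats and at 2.20, 1.45 and 2.14 CPM in stimulated control rats. These levels rest on 31 to 53 reads in control and 84 to 124 reads in stimulated libraries. The groups did not overlap, and stimulated rat 2 was the nearest to the controls. The log2 difference was 0.80 (SE 0.21, 95% interval 0.34 to 1.26, limma unadjusted p = 0.00252, adjusted p = 1.00). At this low level the added 0.5 CPM matters: the log2 difference was 1.03 with a pseudocount of 0.1 CPM and 1.07 by edgeR, both beyond 2-fold.

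ENSRNOG00000002548 was at 3.26, 3.61 and 3.52 CPM in control rats and at 0.817, 1.84 and 1.31 CPM in stimulated control rats. Stimulated rat 2 was again the nearest to the controls, without overlap. The log2 difference was -1.16 (SE 0.25, 95% interval -1.72 to -0.60, limma unadjusted p = 0.000677, adjusted p = 1.00), and this was the smallest p of the comparison. ENSRNOG00000028207 was at 13.96, 17.35 and 13.07 CPM in control rats and at 9.59, 9.79 and 10.8 CPM in stimulated control rats. Its log2 difference was -0.53 (SE 0.13, 95% interval -0.82 to -0.24, limma unadjusted p = 0.002, adjusted p = 1.00), and its groups did not overlap. Such separation was not rare: stimulated and control libraries did not overlap for 1331 features (8.88%), 822 higher and 509 lower. When groups of 3 rats do not differ, full separation has a probability of 0.1, and the share found is not above that. The split into higher and lower uses CPM as deposited and was not repeated under another scaling.

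**Figure D4:**
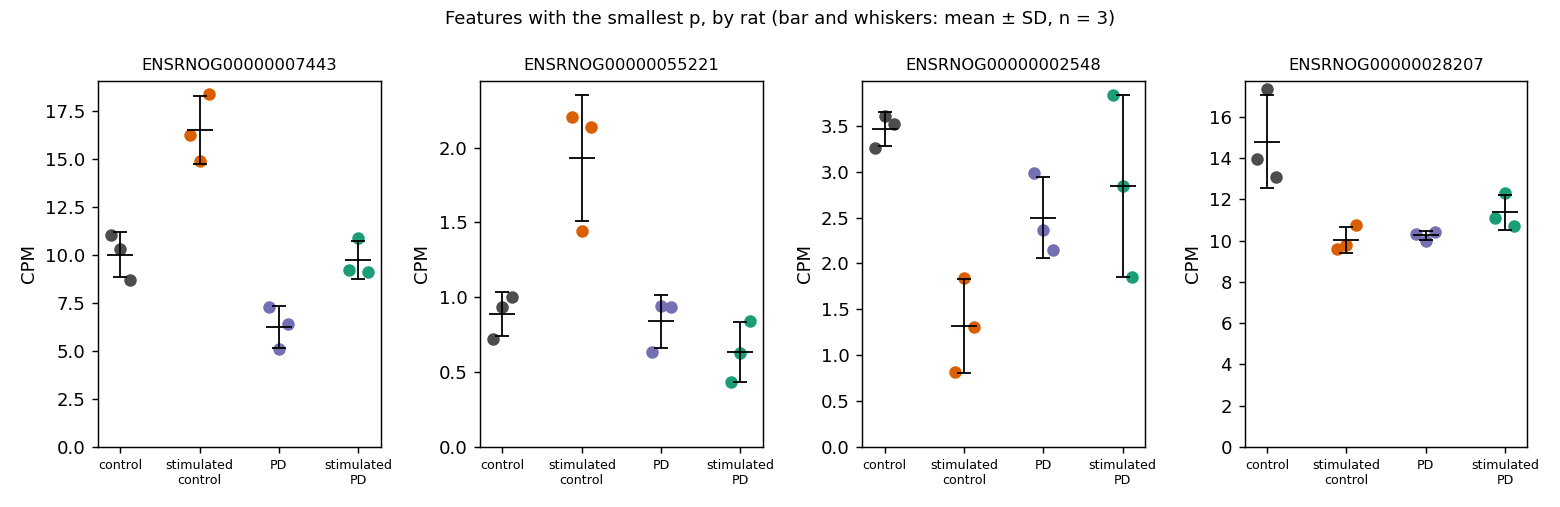
CPM of the 4 features with the smallest p-values, for each rat of the 4 groups; black bars and whiskers are the mean and SD of 3 rats, and each axis starts at 0. Stimulated controls lie above the controls in the left pair of panels and below them in the right pair, and the stimulated PD rats repeat this separation from PD rats only for ENSRNOG00000007443.

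Excursions beyond the control range came mostly from stimulated rats 1 and 3. Stimulated rat 3 lay more than 2-fold above the highest control for 181 features and more than 2-fold below the lowest control for 6. For stimulated rat 1 these counts were 68 and 9, and for stimulated rat 2 they were 1 and 14. At least 2 of the 3 stimulated rats exceeded the controls by this margin for 5 features and fell short by it for 1, all 6 of them in rats 1 and 3. No feature did so in all 3 rats (0 above and 0 below). By any margin, stimulated rats 1 and 3 but not rat 2 lay above the control range for 2830 of the 14985 features and below it for 1443. All these counts use CPM as deposited and were not repeated under another scaling. Stimulated rats 1 and 3 had a higher median CPM (18.9 and 19.9) than any control (17.3 to 18.8), and stimulated rat 2 did not (17.7).

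Many of the features beyond the 2-fold margin stood out in a single rat. Stimulated rat 3 alone lay more than 2-fold above all 5 other unlesioned rats for 93 features, and stimulated rat 1 alone for 45, against 1 to 11 for the other 4 rats. The features of rat 3 were scarce, with a median level of 2.25 CPM and 81 of 93 under 5 CPM. Those of rat 1 had a median level of 12.3 CPM, and the widest gap to the next rat was 6.21 on the log2 scale, in the feature at 1253 CPM described above. In stimulated PD rats, which took no part in choosing them, the highest and lowest rat differed by more than 2-fold for 33 of the 93 (35.5%) and 24 of the 45 (53.3%). Over all tested features that share was 7.92%. In PD rats the shares were 38.7% and 42.2%, against 15.3% over all features. Scarce features vary more in every group, and the shares were not compared at matched abundance.

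Stimulated rats 1 and 3 also had the largest share of reads outside the table, 0.130% and 0.0659%. The share was 0.0364% in stimulated rat 2 and 0.0337% to 0.0494% in control rats. Whether this has a part in their distance from the other rats was not tested. With stimulated rat 2 left out, the number of features with an unadjusted p under 0.05 by limma was 1095, of which 765 were higher, and 211 estimates lay beyond 2-fold. The number called was still 0, with a smallest adjusted p of 0.575. Leaving out 1 rat in the fit of the unlesioned libraries alone was not planned. Leaving out stimulated rat 2 there moved the number at an unadjusted p under 0.05 from 540 to 2661. The smallest limma adjusted p went from 0.784 to 0.0694, with 0 features called. Stimulated rat 2 had already been seen to lie among the controls, and that choice favours a larger difference. Leaving out any other unlesioned rat gave 164 to 736 features at an unadjusted p under 0.05. The lowest limma adjusted p of any of those fits was 0.497. In the fit with the lesioned groups, the number at an unadjusted p under 0.05 was 67 without stimulated rat 3. That number was 88 without control rat 3 and 164 without stimulated rat 1. Without PD rat 2, which enters only the estimate of spread, it was 446.

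The concentration of reads in the most abundant features was compared as well. The 10 most abundant features of each library took 7.650%, 7.700% and 8.003% of the reads in the table in stimulated rats 1, 2 and 3. In control rats 1, 2 and 3 they took 8.62%, 8.72% and 7.79% (difference of means -0.592 percentage points, two-sided exact permutation test over 3 and 3 rats, p = 0.2, where 0.1 is the smallest possible), and the groups overlapped through control rat 3. The most abundant feature stood at 20971 ± 184 CPM in stimulated and 23334 ± 1259 CPM in unstimulated controls (SD, n = 3), a difference of -2362 CPM that is larger than either SD, and each stimulated rat lay below each control (exact permutation test, two-sided, p = 0.1, the smallest possible). This is 1 feature, the groups separated fully for 8.88% of all features tested, and limma called no feature. Features below 1 CPM numbered 2126 to 2500 in stimulated and 2308 to 2496 in control libraries, so the groups overlapped.

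Whether stimulation acted differently in unlesioned and in lesioned rats was tested by the interaction, which shares no library between its 2 differences. By limma, 0 of 14985 features passed (0% called), with a smallest adjusted p of 0.834 and 619 features at an unadjusted p under 0.05. That number was 3140 without PD rat 1 (smallest limma adjusted p = 0.0998) and 1003 without stimulated PD rat 3 (0.103), and 366 without stimulated PD rat 2, with 0 called in each. edgeR called 0 and DESeq2 called 30, with a smallest DESeq2 adjusted p of 3.72e-06. The stimulation difference was higher in PD than in control rats for 28 of these and lower for 2. The estimates beyond 2-fold numbered 37 in unlesioned and 535 in lesioned rats, where the within-group spread of PD rats was also larger. ENSRNOG00000007443 was higher in stimulated than in unstimulated PD rats by 0.61 on the log2 scale (SE 0.16, limma adjusted p = 0.194), at 9.74 ± 0.989 and 6.26 ± 1.11 CPM (n = 3). Its interaction was -0.09, with a 95% interval of -0.58 to 0.41. For ENSRNOG00000055221 and ENSRNOG00000002548 stimulated PD and PD rats overlapped, and the log2 differences were -0.25 and 0.12 (limma adjusted p = 0.492 and 0.789). Their interactions were -1.04 (95% interval -1.69 to -0.40) and 1.28 (0.50 to 2.07), and neither passed over all features (limma adjusted p = 0.834 for each). Both features had been picked for a small p in controls, and that choice favours such a difference.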

How the data were processed

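Per the labels' protocols, libraries were made with a stranded messenger RNA kit. The submitters' processing notes name the assembly mRatBN7.2 and, without versions, Trim Galore, STAR and featureCounts; which annotation, strand setting and scaling tool were used is not stated there. Values are CPM as deposited by the authors, and 0 of them are 0, so the table holds only features with reads in every library. Every value was a whole multiple of 1 step per column, which gave whole reads for 100% of values (tolerance 0.001 read). 0 columns lacked a sample.

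limma 3.58.1 (R 4.3.3) was fitted to log2(CPM + 0.5) with 1 coefficient for each of 4 groups, 12 libraries, trended prior variance and 8 residual degrees of freedom, for features averaging at least 0.5 CPM. P-values were two-sided, with Benjamini-Hochberg adjustment over 14985 features. edgeR 4.0.16 (quasi-likelihood) and DESeq2 1.42.0 were run on the recovered reads. Alternatives were pseudocounts of 0.1 and 2 CPM, other filters, scalings and spread models, a block of rat numbers, leaving out each library, and fits of the 6 unlesioned libraries alone. The scripts were tested on simulated counts: the 3 tools recovered 4-fold changes, recovered 2-fold changes only in part, and DESeq2 made more false calls than limma or edgeR. The pass limit for this test was set per fold size after a limit on overall recovery had not been met. In pairs of unlesioned libraries the chi-square per feature was at least 19.1, so no library was a repeat of another.

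The libraries and 21 gene lists were chosen with earlier results of these data known. The lists, and the rule that named their members, needed symbols and are not analysed here; the rule's remaining part was reduced to the 2 features of smallest p in each direction, without a symbol. Rats were not treated as paired by the numbers in their titles. Deviations from the group mean correlated at -0.06, -0.23 and -0.46 in same-numbered stimulated and unstimulated controls. In differently numbered ones they correlated at -0.27 to 0.50. With 3 rats a group these correlations depend on one another, so they cannot settle whether the numbers pair the rats.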

Additional observations from a re-analysis of the deposited data

Results flagged for a closer look

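In ENSRNOG00000028207 the libraries separated in opposite directions in unlesioned and lesioned rats: each stimulated control rat lay below each control, and each stimulated PD rat lay above each PD rat. Its levels were 10.05 ± 0.625 and 14.79 ± 2.26 CPM in stimulated and unstimulated controls, and 11.4 ± 0.835 and 10.3 ± 0.230 CPM in stimulated PD and PD rats (SD, n = 3). In PD rats the log2 difference was 0.14, with a 95% interval of -0.15 to 0.43 that includes 0 (limma adjusted p = 0.539), and a full separation of the lesioned groups was found for 14.2% of all features tested. The stimulation difference in PD minus that in control was 0.668 on the log2 scale (95% interval 0.26 to 1.08), which did not pass over all features (limma adjusted p = 0.834). The feature had been picked for its small p in controls, and that choice favours such a difference.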

How the results depend on the processing

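The number of features called between stimulated and unstimulated controls was 0 in 32 of 33 alternatives, and 5 by DESeq2 with only the 6 unlesioned libraries, which was added after seeing the data; the cause was not tested. The interaction called 0 features in 22 of 23 alternatives and 30 by DESeq2; the cause was not tested. The number of features with an interval within 2-fold lay between 12424 and 15002 over 29 alternatives, which did not all test the same features. The 15002 was out of 16534 features, when scarce features were kept, and a stricter filter gave 12749 out of 14092. Where the same 14985 features were tested, the number lay between 12424 and 14286, the latter with a pseudocount of 2 CPM. Without 1 of the 6 unlesioned rats this number lay between 12424 and 13465 in the fit of the other 11 libraries. The 4 named features kept their direction in all 33 alternatives each. Much of this was fixed in advance. Their groups did not overlap, so leaving out 1 rat could not reverse a direction. Settings that changed only the spread kept the same estimate. With the rat number as a block (replicate block), 0 features were called, 194 had an unadjusted p under 0.05 by limma, and 13400 intervals lay within 2-fold; in the 6 unlesioned libraries alone the block gave 0, 201 and 13508. Alternatives for the gene lists and anchor genes were not run, since no symbols were paired. Intervals were widest for features under 5 CPM; counting error was not separated from the spread between rats. With 3 rats a group, an exact permutation test cannot go below p = 0.1.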
